A study of Mus musculus with 8 samples.

Results

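The poly(ADP-ribose) polymerase (PARP) family was followed through 10 member genes, Parp1, Parp2, Parp3, Parp4, Parp8, Parp9, Parp10, Parp11, Parp12 and Parp14, which were taken by their gene symbols from the 55359 genes listed in the total RNA-seq of murine bone marrow-derived Mϕ (BMDMs). All 10 reached a mean of at least 10 normalized counts over the samples and were tested, with 52 to 20456 reads per gene and sample. PARP enzymes take ADP-ribose from NAD+ and attach it to proteins, either as chains or as a lone unit. Parp1, Parp2 and Parp3 act at DNA breaks, whereas several other members are known as interferon-induced genes that carry macrodomains or zinc fingers and take part in antiviral defence. In Mϕ, these members are studied as part of the response to interferons and microbial ligands.

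The cells came from C57BL/6 wildtype mice and were differentiated with M-CSF and GM-CSF (20 ng/mL each) for 6 or 7 days, since the sample labels give both. Naïve Mϕ were left alone (Ctrl), and efferocytic Mϕ (Eff) were co-cultured for 16 h with 5 apoptotic NIH-3T3 cells per Mϕ in 10 nM dimerizer. Per the study's methods, these cells were caspase activatable (CA) fibroblasts of a single clone, in which the dimerizer activates an engineered caspase-8. After washing, LPS and LPSEff samples were the naïve and the efferocytic Mϕ after 6 h of LPS (100 ng/mL) plus IFNγ (100 U/mL), and CD45+ cells were isolated for RNA in the protocol that all groups share. There were n = 2 samples per group, and nothing says that they came from separate mice, so that p-values measure the spread between these samples only.

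Recovered reads ranged from 3481288 to 12020918 per sample, and 3 reads corresponded to 1.73 to 5.71 normalized counts. All 9 macrophage markers had reads in every sample, with summed normalized counts of 106438 to 162354. The summed level of 14 fibroblast markers was 230 and 440 (Ctrl), 1064 and 1061 (LPS), 2166 and 3780 (Eff) and 6104 and 5248 (LPSEff), so that it moved with co-culture and, to a lesser extent, with LPS/IFNγ. No NIH-3T3 cells were added to Ctrl or LPS, so that the sum is not a measure of added fibroblasts alone. The summed level of 6 dendritic cell markers was 2161 and 2914 (Ctrl), 8512 and 17212 (LPS), 1365 and 1767 (Eff) and 6886 and 6905 (LPSEff). Most of this sum was Ccr7, with means of 1984 (Ctrl), 11029 (LPS), 1223 (Eff) and 5981 (LPSEff), so that the sum mainly follows this gene. Summed normalized counts of 7 neutrophil markers were 643 to 2176, and those of 8 lymphocyte markers were 9.17 to 33.6. Whether other cell types had a part in the PARP values was not tested, and in bulk RNA fewer cells of a type cannot be told apart from less RNA per cell.

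The macrodomain gene Parp14 was the member with the highest level after stimulation and the one with the largest rise. Its normalized counts were 1101 and 1083 (Ctrl), 14835 and 20773 (LPS), 759 and 640 (Eff) and 15543 and 19883 (LPSEff). Both stimulated groups lay far above both unstimulated groups. With LPS/IFNγ, Parp14 rose 16.1-fold in naïve Mϕ (log2 fold change 4.01, SE 0.23, limma adjusted p = 3.39e-05) and 25.2-fold in efferocytic Mϕ (log2 fold change 4.65, SE 0.23, adjusted p = 1.54e-05). Only 1.04% of the 16309 genes tested had a larger log2 rise in naïve Mϕ, and 0.681% had one in efferocytic Mϕ.

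Parp9, the other macrodomain member that rose strongly, encodes a protein that works as a complex with the ubiquitin ligase Dtx3l. Parp9 had normalized counts of 396 and 407 (Ctrl), 2207 and 3629 (LPS), 221 and 277 (Eff) and 2049 and 2673 (LPSEff). It rose 7.03-fold in naïve (log2 fold change 2.81, SE 0.27, limma adjusted p = 0.000297) and 9.42-fold in efferocytic Mϕ (3.24, SE 0.27, adjusted p = 0.000143). Dtx3l lies beside Parp9 on chromosome 16, in the opposite orientation and with 682 shared bases. Its normalized counts were 381 and 452 (Ctrl), 2464 and 3555 (LPS), 251 and 281 (Eff) and 2358 and 2671 (LPSEff). The pair thus had almost the same course over the 8 samples, and Dtx3l rose by log2 2.83 (SE 0.22, adjusted p = 0.000117) and 3.24 (SE 0.22, adjusted p = 5.63e-05).

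Parp12 encodes a zinc finger member that is known to restrict viruses. It had normalized counts of 331 and 269 (Ctrl), 3394 and 3026 (LPS), 315 and 236 (Eff) and 3896 and 2835 (LPSEff). Parp12 therefore showed the second largest rise among the 10 genes, 10.7-fold in naïve (log2 fold change 3.42, SE 0.23, limma adjusted p = 7.07e-05) and 12.1-fold in efferocytic Mϕ (3.60, SE 0.23, adjusted p = 4.36e-05). Parp10, an enzyme that adds lone ADP-ribose units, had normalized counts of 282 and 300 (Ctrl), 2437 and 1691 (LPS), 335 and 260 (Eff) and 2441 and 1880 (LPSEff). The rises of Parp10 were 6.97-fold (log2 fold change 2.80, SE 0.24, adjusted p = 0.000200) and 7.24-fold (2.86, SE 0.24, adjusted p = 0.000161). The gene shares 1401 bases with Plec on the same strand, so that its reads are less certain. Plec had a log2 fold change of −0.48 with LPS/IFNγ in naïve Mϕ (limma adjusted p = 0.186). What the shared bases did to the Parp10 values was not tested.

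Parp11, whose product sits at the nuclear envelope, and Parp8, one of the least studied members, were the lowest members per kilobase before stimulation. Parp11 had normalized counts of 128 and 204 (Ctrl), 1040 and 1466 (LPS), 118 and 150 (Eff) and 1263 and 1166 (LPSEff), a rise of 7.62-fold in naïve (log2 fold change 2.93, SE 0.28, limma adjusted p = 0.000293) and 9.06-fold in efferocytic Mϕ (3.18, SE 0.28, adjusted p = 0.000182). Parp8 had normalized counts of 99.0 and 164 (Ctrl), 503 and 825 (LPS), 82.4 and 162 (Eff) and 498 and 604 (LPSEff). Its replicates lay further apart, and the rises were 5.02-fold (2.33, SE 0.39, adjusted p = 0.00419) and 4.72-fold (2.24, SE 0.39, adjusted p = 0.00585). The second sample was higher in every group for Parp8, as it was for Parp1, Parp2, Parp4 and Parp9.

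Parp4, the PARP of the vault ribonucleoprotein particle, rose least among the called members. Its normalized counts were 449 and 584 (Ctrl), 1086 and 1522 (LPS), 424 and 547 (Eff) and 956 and 1095 (LPSEff). The rise was 2.51-fold in naïve (log2 fold change 1.33, SE 0.24, limma adjusted p = 0.00581) and 2.12-fold in efferocytic Mϕ (1.09, SE 0.24, adjusted p = 0.0155). The second call did not hold without Eff replicate 1 (log2 fold change 0.90, adjusted p = 0.110), LPSEff replicate 1 (1.18, adjusted p = 0.0567) or LPSEff replicate 2 (0.99, adjusted p = 0.0829).

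Of the members that act at DNA breaks, Parp1 was called lower, and Parp2 and Parp3 were not called in either comparison. Parp1, the main sensor of DNA strand breaks, had normalized counts of 904 and 910 (Ctrl), 229 and 273 (LPS), 699 and 783 (Eff) and 225 and 339 (LPSEff). Parp1 was 3.62-fold lower in LPS than in Ctrl (log2 fold change −1.86, SE 0.23, limma adjusted p = 0.00103) and 2.67-fold lower in LPSEff than in Eff (−1.42, SE 0.23, adjusted p = 0.00399), and was the only member called lower in these 2 comparisons. Parp2, its closest relative in DNA repair, had normalized counts of 158 and 242 (Ctrl), 133 and 148 (LPS), 176 and 219 (Eff) and 93.4 and 133 (LPSEff). Neither difference of Parp2 passed the main limma test (log2 fold change −0.47, adjusted p = 0.281, and −0.81, adjusted p = 0.0867). With the replicate number as a block LPSEff vs Eff passed (adjusted p = 0.00560), and with samples rescaled to equal totals both passed (−0.87, adjusted p = 0.0302, and −1.26, adjusted p = 0.00750). Parp2 overlaps Rpph1 and Ccnb1ip1 on the opposite strand, by 277 and 316 bases. Both had high counts, but Rpph1 lies within Ccnb1ip1 on the same strand, so that their counts may not be separate.

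Parp3, which takes part in the repair of double-strand breaks, had normalized counts of 425 and 334 (Ctrl), 442 and 689 (LPS), 307 and 325 (Eff) and 532 and 463 (LPSEff). Its log2 fold changes were 0.55 (95% interval −0.02 to 1.12, limma adjusted p = 0.153) in naïve and 0.65 (0.08 to 1.22, adjusted p = 0.107) in efferocytic Mϕ. With the replicate block, the second of them passed (adjusted p = 0.0333), and without LPS replicate 1 the first did (0.87, adjusted p = 0.0483). Rrp9, which shares 998 bases with Parp3 on the opposite strand, fell by 1.08 on the log2 scale in naïve Mϕ (adjusted p = 0.00815).

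In all, 8 of the 10 members were called in LPS vs Ctrl, 7 higher and 1 lower, while 24% of all genes tested were called (12.4% higher and 11.6% lower). The same counts were found in LPSEff vs Eff, where 19.7% of all genes were called (10.7% higher and 8.95% lower). The median log2 fold change of the members was 2.56 in naïve and 2.55 in efferocytic Mϕ, beside −0.01 and 0.01 over all genes. For each member, both stimulated samples lay on the same side of both unstimulated samples in both comparisons, which was also the case for 28.4% (higher) and 30.9% (lower) of all genes in LPS vs Ctrl and for 29.5% and 30.4% in LPSEff vs Eff. With the replicate block, 10 members were called in LPSEff vs Eff, 8 higher and 2 lower, and 37% of all genes were (19% higher and 18% lower).

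**Figure D1:**
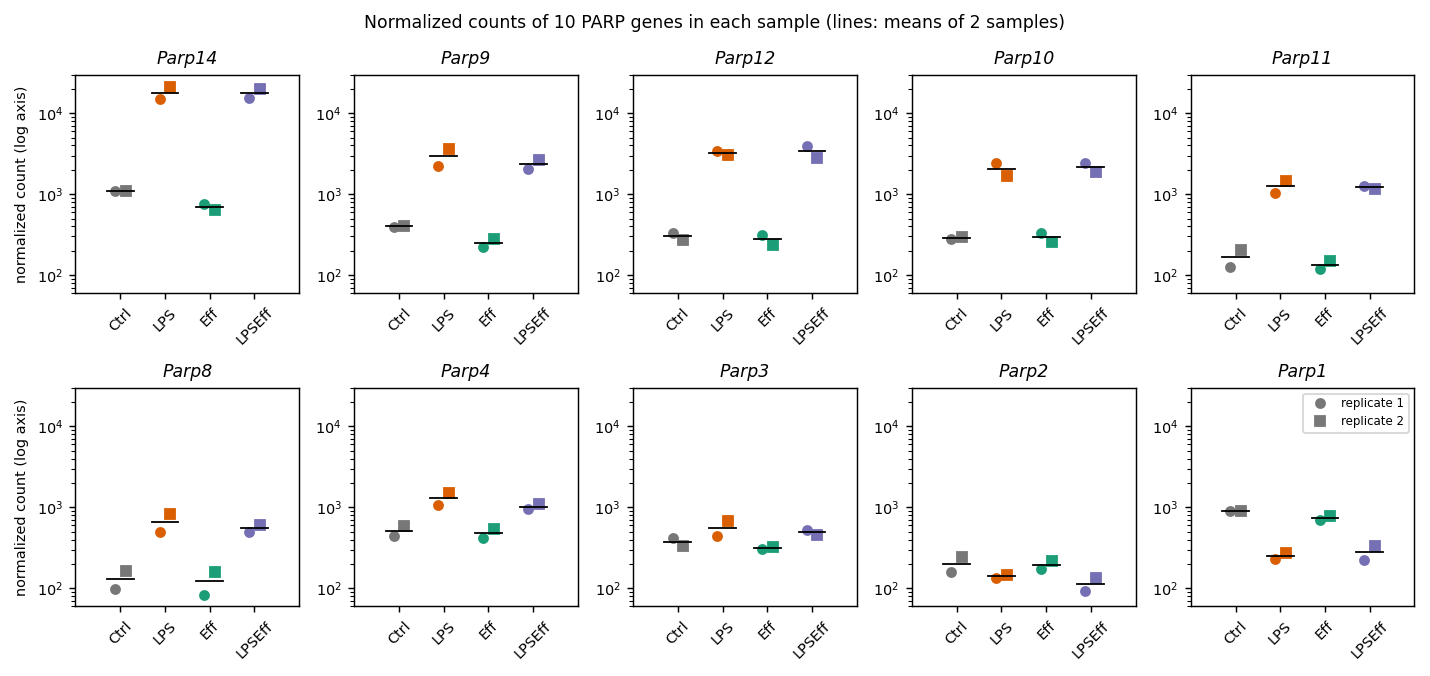
Normalized counts (log axis) of the 10 PARP genes in Ctrl, LPS, Eff and LPSEff, with circles for replicate 1, squares for replicate 2 and a line at the mean of n = 2 samples. Parp14 lies between 640 and 1101 in the unstimulated samples and between 14835 and 20773 in the stimulated ones, while Parp1 lies between 699 and 910 and between 225 and 339.

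When the LPS/IFNγ effect was averaged over naïve and efferocytic Mϕ, all 10 members were called, 8 higher and 2 lower, beside 36.5% of all genes (17.9% higher and 18.6% lower). The 2 additional members were Parp3 (log2 fold change 0.60, SE 0.17, limma adjusted p = 0.0279) and Parp2 (−0.64, SE 0.20, adjusted p = 0.0377). Both calls were lost in several fits that left out a sample. The average of Parp2 missed the threshold without Ctrl replicate 2 (−0.49, adjusted p = 0.126), Eff replicate 1 (−0.72, adjusted p = 0.0562), Eff replicate 2 (−0.56, adjusted p = 0.121), LPS replicate 1 (−0.60, adjusted p = 0.0871), LPS replicate 2 (−0.68, adjusted p = 0.0589) or LPSEff replicate 1 (−0.52, adjusted p = 0.120). That of Parp3 missed it without Ctrl replicate 2 (0.51, adjusted p = 0.0962), Eff replicate 1 (0.58, adjusted p = 0.0791), Eff replicate 2 (0.62, adjusted p = 0.0647), LPS replicate 2 (0.44, adjusted p = 0.0643) or LPSEff replicate 1 (0.55, adjusted p = 0.0874). With samples rescaled to equal totals, which moved the median of all genes to −0.42 in this average, the value of Parp3 was 0.18 (adjusted p = 0.399).

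Whether efferocytosis altered the LPS/IFNγ effect was tested as the difference between LPSEff vs Eff and LPS vs Ctrl. No member and none of the 16309 genes was called by limma (0%), edgeR or DESeq2, while 0 members and 311 genes had an unadjusted p under 0.05 with limma. The differences of the members ranged from −0.33 for Parp2 to 0.65 for Parp14 on the log2 scale. For Parp14 the 95% interval was −0.10 to 1.39 (limma adjusted p = 1.00), and for Parp1 the difference was 0.44 (−0.31 to 1.18). The intervals of the others reached from −1.36, the lower end of Parp8, to 1.29, the upper end of Parp9. A log2 difference of 1 thus lay inside the intervals of several members and is not excluded by these samples. With the replicate number as a block, 0 members were called, and the interval of Parp14 was 0.08 to 1.22 (limma unadjusted p = 0.0289, adjusted p = 0.693). In that fit, 1 member and 1052 genes (6.45%) had an unadjusted p under 0.05.

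**Figure D2:**
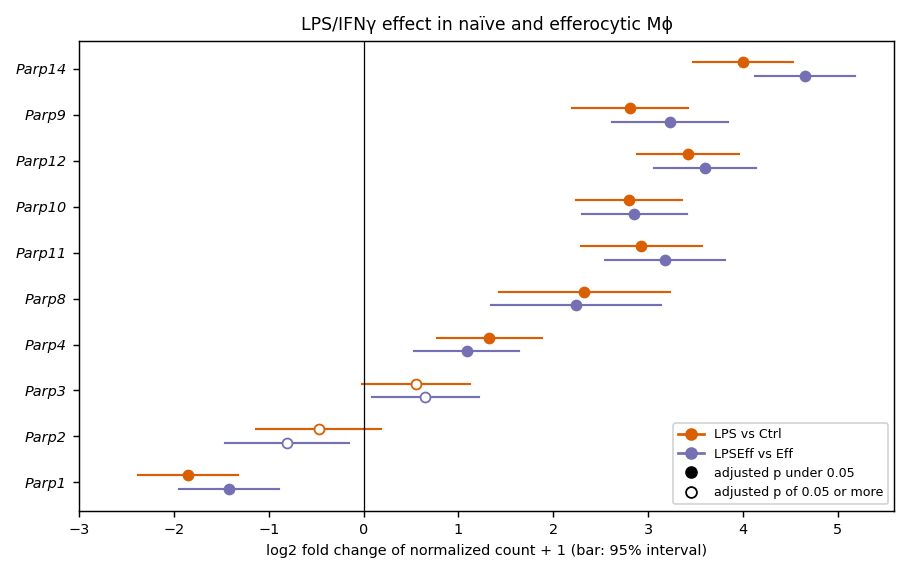
Log2 fold change with LPS/IFNγ of each PARP gene in naïve (LPS vs Ctrl, orange) and efferocytic Mϕ (LPSEff vs Eff, purple), with 95% intervals from limma and filled symbols for an adjusted p under 0.05. The values run from 4.01 and 4.65 for Parp14 to −1.86 and −1.42 for Parp1, and the intervals of both comparisons overlap for every gene.

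Without stimulation, no PARP gene passed the test with efferocytosis, and Parp9 and Parp14 had the lowest values relative to Ctrl. In Eff vs Ctrl, 0 of the 10 members were called by limma, beside 0.251% of all genes, and 2 had an unadjusted p under 0.05, beside 6.13% of all genes. These were Parp9, which was 1.62-fold lower in Eff (log2 fold change −0.70, 95% interval −1.31 to −0.08, adjusted p = 0.695), and Parp14, which was 1.57-fold lower (−0.65, −1.17 to −0.12, adjusted p = 0.618). The block on replicate number gave limma adjusted p values of 0.0528 (Parp9) and 0.103 (Parp14). Both Eff samples lay below both Ctrl samples for Parp1, Parp3, Parp9 and Parp14, as they did for 17.8% of all genes. The other 8 log2 fold changes ranged from −0.29 for Parp1 to 0.02 for Parp10.

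In stimulated Mϕ, LPSEff and LPS overlapped for all 10 members. None was called in LPSEff vs LPS by limma (0.773% of all genes were), and none had an unadjusted p under 0.05. With the replicate block, none was called either. Parp4 then had an unadjusted limma p of 0.0335 (adjusted p = 0.186), beside 21.4% of all genes with an unadjusted p under 0.05. Log2 fold changes ranged from −0.33 for Parp2 and Parp4 to 0.14 for Parp1. That of Parp14 was 0.00 with a 95% interval of −0.52 to 0.53. Averaged over both contexts, efferocytosis gave 0 called members by limma beside 1.92% of all genes, with −0.49 for Parp9 (95% interval −0.92 to −0.05, adjusted p = 0.312) as the lowest value. With the replicate block, Parp9 passed in this average (adjusted p = 0.0233), where 5.2% of all genes were called lower, and with edgeR and the block (5.71% of all genes called lower) it had an adjusted p of 0.0193. Dtx3l, its partner, had log2 fold changes of −0.64 without and −0.24 with stimulation, and passed the test in neither, while with the block it passed in Eff vs Ctrl (adjusted p = 0.0396) and in the average (adjusted p = 0.0186). The summed fibroblast markers given above were higher in each efferocytic sample than in any naïve sample, and their part in these values was not tested.

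**Figure D3:**
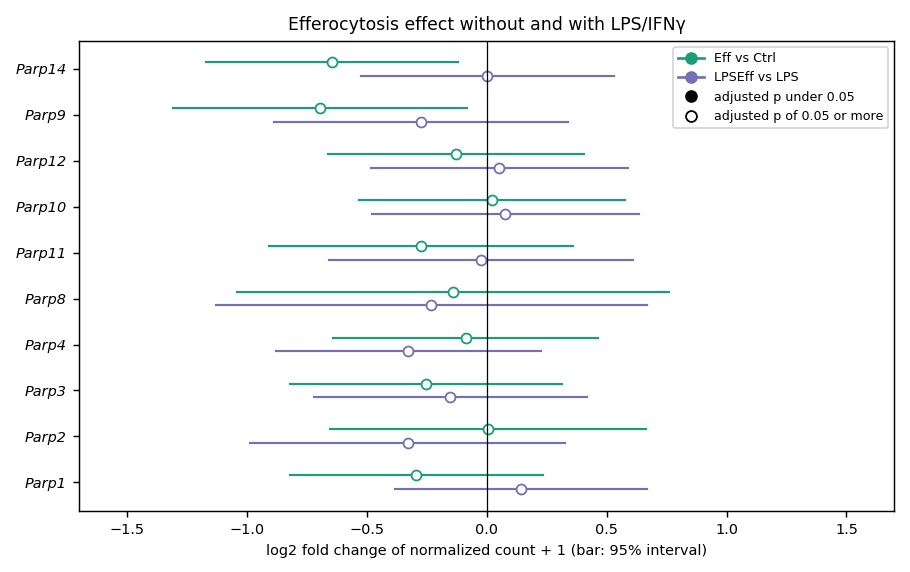
Log2 fold change with efferocytosis of each PARP gene without (Eff vs Ctrl, green) and with LPS/IFNγ (LPSEff vs LPS, purple), with 95% intervals from limma; no symbol is filled, since no adjusted p was under 0.05. Parp9 and Parp14 in Eff vs Ctrl, at −0.70 and −0.65, are the members whose intervals lie below 0.

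Levels of different genes were compared as normalized counts per kilobase of annotated exon. These lengths merge all annotated transcripts, with 12.9 kb for Parp11 and Parp8 and 4.35 kb for Parp2, and the order depends on them. Which transcripts were expressed was not tested. In Ctrl, Parp1 was the highest member (mean 125 per kilobase), followed by Parp14 (114), Parp3 (99.4) and Parp9 (80.0), each clear of the next in both samples. Parp12 (68.9), Parp10 (67.9), Parp4 (59.5) and Parp2 (46.0) followed, and neighbours in this order overlapped. Parp11 (12.9) and Parp8 (10.2) were lowest and overlapped with each other. In LPS, Parp14 led with 1858 per kilobase, Parp12 (737), Parp9 (581) and Parp10 (482) followed with overlapping neighbours, and Parp4 (150), Parp3 (148), Parp11 (97.4) and Parp8 (51.6) came next. Parp1 (34.5) and Parp2 (32.4) were lowest after stimulation and overlapped.

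The order in Eff was like that in Ctrl in its ends, with Parp1 (102 per kilobase) first and Parp11 (10.4) and Parp8 (9.49) last. That in LPSEff had Parp14 (1849) and Parp12 (773) first and Parp2 (26.1) last. Over the 10 genes, the summed level per kilobase was 677 and 690 (Ctrl), 3759 and 4586 (LPS), 555 and 567 (Eff) and 3934 and 4160 (LPSEff). The share of Parp14 in this sum was 17.0% and 16.4% (Ctrl), 41.2% and 47.3% (LPS), 14.3% and 11.8% (Eff) and 41.2% and 49.9% (LPSEff). The share of Parp1 was 18.3% and 18.1% (Ctrl), 0.836% and 0.818% (LPS), 17.3% and 18.9% (Eff) and 0.785% and 1.12% (LPSEff). Parp1 had the highest share in every unstimulated sample and Parp14 in every stimulated one. Parp12 came second in 3 of the 4 stimulated samples, whereas in LPS replicate 2 Parp9 (15.8%) was above Parp12 (15.2%). The depth behind these levels was lowest for Parp8 (52 reads in Ctrl replicate 1) and highest for Parp14 (20456 reads in LPS replicate 2).

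**Figure D4:**
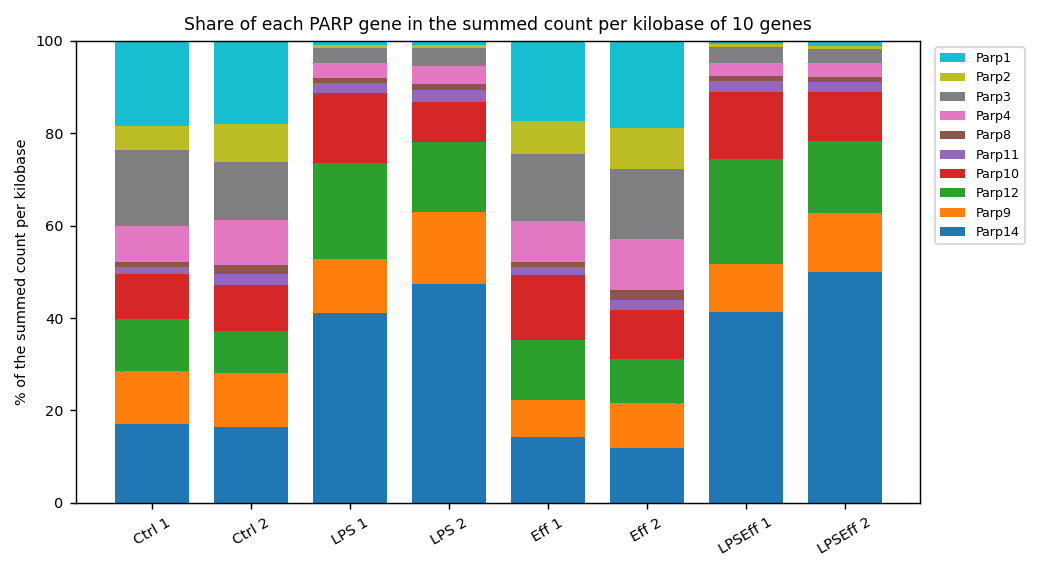
Stacked share (%) of each PARP gene in the summed normalized count per kilobase of the 10 genes, with a bar for each of the 8 samples. The share of Parp14 is 11.8% to 17.0% in unstimulated and 41.2% to 49.9% in stimulated samples, and that of Parp1 is 17.3% to 18.9% and 0.785% to 1.12%.

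The regions around the start sites were searched for short sequences bound by factors of the interferon and LPS responses, because 7 members rose together. The searched letters, on both strands, were GAAA and GAAA with 2 bases between them (the core of the interferon-stimulated response element, ISRE) and GGGA and TTCC with 2 bases between them (an NF-κB core), in windows from 250 bases before to 50 bases after a start. Motifs and start sites were chosen after the expression values were known, and 3 sets of start sites were searched. At the canonical GENCODE starts (GRCm39), Parp4 alone of the 10 members held a match, and the same was found at the outermost GENCODE starts. RefSeq windows were given for 7 members (8 windows, all found at an exact place in GRCm39), and matches were found in that of Parp4 and in that of the upstream start of Parp11. Parp9, Parp10 and Parp14 had no RefSeq window and were searched at the GENCODE starts only. Of 16241 promoters at canonical starts, 3.91% held the ISRE core and 1.48% the NF-κB core, and of 13083 RefSeq windows the shares were 3.34% and 1.53%. At the outermost starts they were 4.0% and 1.33%. Among the 2905 promoters of genes called higher in the averaged LPS/IFNγ effect, 6.37% held the ISRE core and 2.34% the NF-κB core at canonical starts, and 5.99% and 1.86% at the outermost starts. A match is a description of letters, and its absence says only that these letters are not in the window.

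The 3 sequences below are shown as the windows with matches and as that of the member with the largest rise, which held none (5′ to 3′ on the gene's strand, capitals for matches). In Parp4 (chr14:56812707-56813006, GRCm39, + strand), 2 overlapping ISRE cores begin 31 and 25 bases before the canonical start. In Parp11 (chr6:127423553-127423852, GRCm39, + strand), an ISRE core on the opposite strand begins 44 bases before the upstream RefSeq start. The window of Parp14 is chr16:35691954-35692253 (GRCm39, − strand).
Parp4: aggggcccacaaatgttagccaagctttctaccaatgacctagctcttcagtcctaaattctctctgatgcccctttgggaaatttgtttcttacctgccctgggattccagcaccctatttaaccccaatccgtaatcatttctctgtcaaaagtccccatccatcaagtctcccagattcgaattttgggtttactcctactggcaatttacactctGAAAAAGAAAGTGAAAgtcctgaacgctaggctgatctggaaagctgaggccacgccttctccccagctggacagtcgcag
Parp11: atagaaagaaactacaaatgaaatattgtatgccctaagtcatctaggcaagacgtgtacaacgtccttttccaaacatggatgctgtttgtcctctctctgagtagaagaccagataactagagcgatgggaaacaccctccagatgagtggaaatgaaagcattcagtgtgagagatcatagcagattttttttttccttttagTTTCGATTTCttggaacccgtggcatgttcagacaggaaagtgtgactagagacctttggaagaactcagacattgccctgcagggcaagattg
Parp14: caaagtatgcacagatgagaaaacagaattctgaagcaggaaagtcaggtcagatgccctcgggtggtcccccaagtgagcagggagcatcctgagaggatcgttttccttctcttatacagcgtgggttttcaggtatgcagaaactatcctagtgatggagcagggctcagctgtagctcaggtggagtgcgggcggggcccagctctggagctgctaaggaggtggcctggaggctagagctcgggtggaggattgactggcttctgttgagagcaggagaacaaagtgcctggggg

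Of the 6 other family genes measured, 2 were called higher in each LPS/IFNγ comparison, beside 12.4% of all genes in naïve and 10.7% in efferocytic Mϕ. Zc3hav1, the antiviral zinc finger protein also called Parp13, had normalized counts of 1217 and 1361 (Ctrl), 3457 and 4265 (LPS), 1180 and 1306 (Eff) and 3404 and 4145 (LPSEff), and rose by log2 1.58 (limma adjusted p = 0.00103) and 1.60 (adjusted p = 0.00105) with LPS/IFNγ. Tiparp, which is known as a target of the aryl hydrocarbon receptor, rose by log2 1.13 (adjusted p = 0.00756) and 1.42 (adjusted p = 0.00317). The tankyrases Tnks and Tnks2, with log2 fold changes of 0.05 to 0.27, did not pass the main limma test, nor did Parp6 and Parp16. With the replicate block, 1 of the 6 genes was called lower in LPSEff vs Eff, where 18% of all genes were. None of the 6 genes was called with efferocytosis.

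Genes that act with PARPs, remove ADP-ribose or supply NAD were counted by list. The list of PARP partners and single-strand break repair had 15 genes and also held Xrcc5, Xrcc6 and Ube2l6. Of these 15 genes, 3 were called higher and 6 lower in LPS vs Ctrl, beside 24% of all genes. In LPSEff vs Eff, 2 were called higher and 4 lower, beside 19.7% (median log2 fold change −0.70 and −0.32). The replicate block gave 4 higher and 8 lower in the first and 3 higher and 5 lower in the second, beside 41.2% and 37% of all genes. With efferocytosis and the block, 1 was called lower in Eff vs Ctrl, 1 in LPSEff vs LPS and 3 in the average. The shares of all genes called lower there were 0.975%, 2.65% and 5.2%. The largest changes with LPS/IFNγ were those of Ube2l6 and Dtx3l. Ube2l6, the conjugating enzyme for the ubiquitin-like Isg15, had log2 fold changes of 2.84 (limma adjusted p = 0.000114) and 3.33 (adjusted p = 4.61e-05). Hpf1, the cofactor that directs Parp1 and Parp2 to serine, had −0.55 (adjusted p = 0.128) and −0.32 (adjusted p = 0.395). Of 14 genes for ADP-ribose removal or with macrodomains, 1 was called higher (Adprh, an ADP-ribosyl-arginine hydrolase, 0.65, adjusted p = 0.0409) and 1 lower (Nudt5, an ADP-ribose pyrophosphatase, −0.72, adjusted p = 0.0447) in LPS vs Ctrl, and Nudt5 (−0.76, adjusted p = 0.0407) in LPSEff vs Eff. The shares of all genes called in these comparisons were 24% and 19.7%. With the replicate block, 2 were called higher and 3 lower in the first and 2 higher and 4 lower in the second. Thus 5 and 6 of the 14 genes stood beside 41.2% of all genes (20.5% higher and 20.7% lower) and 37%.

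Of 25 genes for NAD supply and other NAD consumers, 22 were tested. In each LPS/IFNγ comparison 4 were called higher and 1 lower, beside 24% of all genes in naïve and 19.7% in efferocytic Mϕ. With the replicate block, 5 were called higher and 3 lower in naïve and 6 higher and 3 lower in efferocytic Mϕ. These 8 and 9 of 22 genes stood beside 41.2% and 37% of all genes. Cd38, a NAD glycohydrolase of the cell surface, had normalized counts of 251 and 89.6 (Ctrl), 2926 and 1526 (LPS), 177 and 78.3 (Eff) and 2128 and 1518 (LPSEff) (log2 fold change 3.81, limma adjusted p = 0.00216, and 3.92, adjusted p = 0.00219). Nampt, the enzyme that limits NAD salvage, rose by log2 2.34 (adjusted p = 0.00160) in naïve and 2.62 (adjusted p = 0.00106) in efferocytic Mϕ. Kynu, an enzyme of NAD synthesis from tryptophan, rose by log2 2.27 (adjusted p = 0.0300) and 2.71 (adjusted p = 0.0168). Averaged over both contexts, efferocytosis gave 1 call in this list, Nmnat2, whose 8 values were between 0 and 58.4 normalized counts, while the block gave 4 calls, 2 higher and 2 lower (beside 6.11% and 5.2% of all genes). For comparison, 29 of 34 tested interferon signaling genes were called higher and 0 lower in each LPS/IFNγ comparison, beside 12.4% and 10.7% of all genes called higher. Their median was 2.37 in naïve and 2.64 in efferocytic Mϕ. The list was led by Cxcl10 (8.36, limma adjusted p = 9.50e-06, and 9.07, adjusted p = 4.95e-06) and Rsad2 (7.91, adjusted p = 9.50e-06, and 8.89, adjusted p = 4.29e-06). With efferocytosis averaged, 1 gene of that list was called, the antiviral GTPase Mx1, which was lower by a log2 fold change of −1.04 (adjusted p = 0.0101). With the replicate block, 8 genes of the list were called lower in Eff vs Ctrl, where 0.975% of all genes were called lower and 1.7% higher. In the average 10 were called lower, beside 5.2% of all genes, and 0 were called higher in either.

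**Figure D5:**
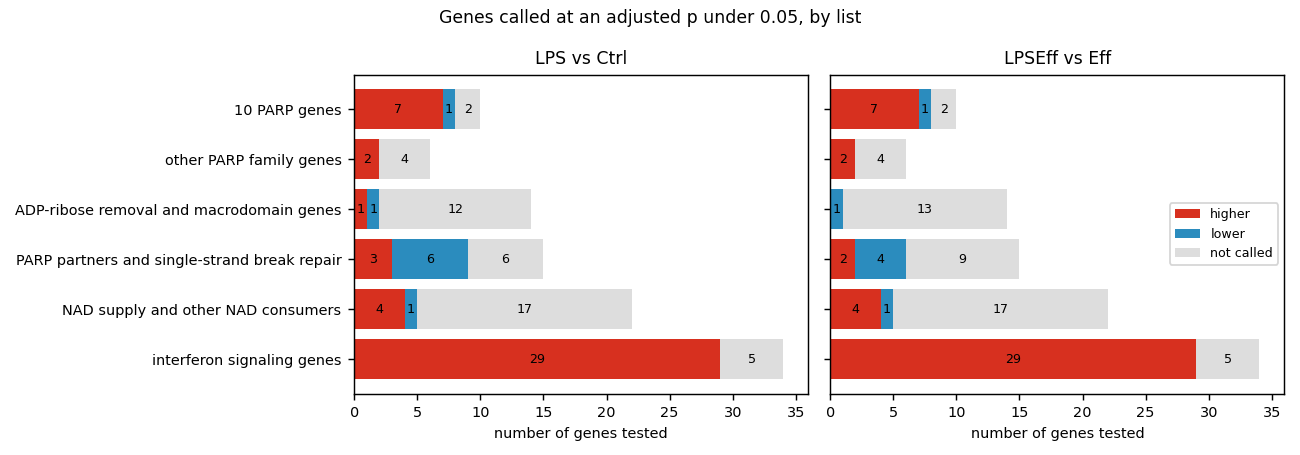
Number of tested genes called higher (red), lower (blue) or not called (grey) at a limma adjusted p under 0.05 in LPS vs Ctrl and LPSEff vs Eff, for the 10 PARP genes and 5 related lists. The PARP genes show 7 higher and 1 lower in both comparisons, and the interferon signaling genes 29 higher and 0 lower. Of all genes tested, 24% were called in LPS vs Ctrl and 19.7% in LPSEff vs Eff.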

How the data were processed

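Total RNA of 8 BMDM samples was depleted of rRNA and sequenced as single-end reads. Per the paper's methods and the submitters' processing notes, the authors used cutadapt for adapters, Bowtie2 against rRNA, STAR for alignment to mm39, HTSeq in its default mode (which uses strand) for counting and DESeq2 for normalization. Versions and the annotation release are not given in the sources used here. The deposited signal is the authors' normalized count of each gene (reads over the size factor of the sample). Dividing by the smallest value of a sample returned whole reads for 100% of genes (tolerance 0.01). Floors drawn from these reads cover counting error only. The intervals given for log2 fold changes come from the limma fits and measure the spread between these samples only. Of 55359 genes, 54749 (98.9%) were named from GENCODE annotation of GRCm39. No column of values was left unused.

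The main test was limma-trend (limma 3.58.1, R 4.3.3) applied to the log2 of the normalized count with a pseudocount of 1, over 16309 genes with a mean of at least 10 and the means of all 4 groups in the fit (4 residual degrees of freedom), with Benjamini-Hochberg adjustment in each of 7 contrasts (4 pairwise comparisons, both averaged effects and the difference between LPS/IFNγ effects). A gene was called at an adjusted p under 0.05, and a p is two-sided. The pseudocount understates changes of low genes. With n = 2 per group, the smallest p of an exact permutation test is 0.333. Replicate numbers come from the sample names, and no label says that same-numbered samples share a preparation. Differences between replicates 1 and 2 correlated across genes between every pair of groups (r = 0.404 to 0.595). The fit with the replicate number as a block (3 residual degrees of freedom) is therefore given where it changes the call of a member. For other genes and lists it is given in part. The fits were tested on simulated data. Alternatives were pseudocounts of 0.5 and 5, no filter, a mean of at least 50, only the groups compared, the block, quantile normalization, equal totals, edgeR 4.0.16 (TMM, with and without the block) and DESeq2 1.42.0 on the recovered reads, and leaving out each sample.

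Members and lists were chosen with earlier results of these data known. All 10 members were named. Of other lists, the family genes, Dtx3l, Hpf1, the 2 largest called changes per comparison and the non-member with the highest correlation to each member were named. Of the neighbours within 10 kb, a part was named. Where Adprh, Nudt5 and Nmnat2 are given, they are the calls of their list. Per-kilobase values use the merged exons of GENCODE. A further motif that was searched is not reported here.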

Additional observations from a re-analysis of the deposited data

How the results depend on the processing

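The 8 called members of LPS vs Ctrl and 7 of those in LPSEff vs Eff (all but Parp4) kept their call and direction under every alternative. The number of members called was 8 to 9 in LPS vs Ctrl, 7 to 10 in LPSEff vs Eff and 8 to 10 in the averaged LPS/IFNγ effect, and 0 in Eff vs Ctrl, LPSEff vs LPS and the difference between LPS/IFNγ effects throughout. In the averaged efferocytosis effect, 1 member (Parp9) was called with the replicate block and 1 with edgeR and the replicate block, beside 0 otherwise. With equal totals, the median of all genes was −0.40 in LPS vs Ctrl and −0.44 in LPSEff vs Eff, and Parp2 passed in both (−0.87 and −1.26). The block changed no other call of a member than those given in the results. Parp3 passed in LPS vs Ctrl with edgeR and the block (adjusted p = 0.0320), and the average of Parp2 missed the threshold with no filter (adjusted p = 0.0680). Signs turned where values were near 0 and not called. In Eff vs Ctrl, Parp2 was −0.033 with DESeq2, −0.042 with edgeR and −0.033 with edgeR and the block, and Parp10 was −0.025 with the last. In LPSEff vs LPS, Parp14 was −0.019, −0.0027 and −0.0020 with the same tools, −0.035 with equal totals and −0.060 with quantile normalization. The cause was not tested.

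Leaving out each sample in turn also turned the sign of uncalled log2 fold changes. The ranges were, in Eff vs Ctrl, Parp2 −0.30 to 0.31, Parp4 −0.28 to 0.10, Parp8 −0.62 to 0.34, Parp10 −0.16 to 0.20, Parp11 −0.61 to 0.060 and Parp12 −0.34 to 0.075. The ranges were, in LPSEff vs LPS, Parp1 −0.15 to 0.44, Parp3 −0.47 to 0.17, Parp8 −0.59 to 0.12, Parp9 −0.63 to 0.085, Parp10 −0.19 to 0.34, Parp11 −0.27 to 0.22, Parp12 −0.18 to 0.28 and Parp14 −0.24 to 0.24. The ranges were, in the averaged efferocytosis effect, Parp1 −0.22 to 0.071, Parp8 −0.43 to 0.054, Parp10 −0.082 to 0.18, Parp11 −0.32 to 0.017 and Parp12 −0.15 to 0.076. The ranges were, in the difference between LPS/IFNγ effects, Parp3 −0.22 to 0.42, Parp4 −0.48 to 0.0029, Parp8 −0.57 to 0.39, Parp10 −0.21 to 0.32, Parp11 −0.085 to 0.58 and Parp12 −0.047 to 0.41. Calls lost or gained on leaving out a sample are given in the results. With n = 2, depth and sample number together limit what could be detected.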

Other observations

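Neighbours of the PARP genes were read beside them. Gm49730, a transcript annotated for experimental checking inside Parp14 on the same strand, had normalized counts of 40.0 and 46.8 (Ctrl), 503 and 652 (LPS), 33.3 and 23.3 (Eff) and 516 and 605 (LPSEff), so that it followed the course of Parp14 (log2 fold change 3.70 in naïve and 4.28 in efferocytic Mϕ, limma adjusted p = 7.91e-05 and 3.56e-05). Since Gm49730 lies wholly within Parp14, its reads in total RNA cannot be told apart from those of unspliced Parp14 RNA. Near Parp4, Cpap, which starts 75 bases away in the opposite direction, rose by log2 0.99 (adjusted p = 0.0233) and 1.33 (adjusted p = 0.00814), and Gm16573, a lncRNA on the other strand within Parp4, by log2 1.49 (adjusted p = 0.00453) and 1.22 (adjusted p = 0.0121). Kpna1 and Hspbap1, the coding neighbours of Parp9 and Parp14 on their outer sides, had log2 fold changes of −0.08 and 0.20 in naïve Mϕ (adjusted p = 0.789 and 0.599). Tbxas1, the thromboxane synthase gene beside Parp12, was lower with LPS/IFNγ (−0.96, adjusted p = 0.0172, and −0.92, adjusted p = 0.0236). On the other side, the lncRNA 4930599N23Rik shares 267 bases with Parp12 on the opposite strand. Its mean normalized counts were higher with LPS/IFNγ, at 42.9 (Ctrl), 114 (LPS), 43.0 (Eff) and 97.4 (LPSEff). Grina, beside Parp10, was called in both LPS/IFNγ comparisons (1.13, adjusted p = 0.0121, and 0.94, adjusted p = 0.0292) and in the averaged efferocytosis effect (1.02, adjusted p = 0.0252), where none of the PARP genes was.

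Over the 8 samples, the non-member with the highest Pearson correlation of log2 values was Isg15 for Parp12 (r = 0.999), Gm44148 for Parp14 (0.999), Samhd1, a dNTP hydrolase that restricts viruses, for Parp9 (0.999), Setdb2 for Parp4 (0.999), Gbp3, an interferon-induced GTPase, for Parp11 (0.997), Fut8 for Parp8 (0.997), Slc1a2 for Parp10 (0.997), Kdsr for Parp1 (0.996), Tep1 for Parp2 (0.985) and Cnot4 for Parp3 (0.980). These are descriptions over 8 samples, which fall into 2 stimulated and 2 unstimulated groups and are shared by every gene. For 7 of the members and Parp1, between 565 and 812 genes had a correlation over 0.95, against 71 for Parp2 and 12 for Parp3. Tep1 is also the downstream neighbour of Parp2, at a distance of 2757 bases, and its log2 fold changes with LPS/IFNγ were below 0 as well (−0.68, limma adjusted p = 0.141, in naïve and −1.0, adjusted p = 0.0491, in efferocytic Mϕ).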
